A study of Mus musculus with 20 samples.

Results

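Complement genes of macrophages are described here: the 3 chains of C1q (C1qa, C1qb and C1qc), the components C3, C4b, factor B (Cfb) and properdin (Cfp), and the receptors C3ar1 and C5ar1. Members were found by their symbol in the platform annotation of the arrays. Of the 9 genes, 8 had a probe (10 of 45281 probes), and 7 passed the detection filter, beside 10018 genes tested in all. C3 carried no probe under its symbol, gene identifier or accession and was not analysed here. Factor B was detected on 4 of 20 arrays, under the 5 required, and was not tested.

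The arrays are Illumina BeadChips of RNA from bone marrow-derived macrophages of C57BL/6 mice, cells that marrow precursors form over 6 days in medium with 40 ng/ml M-CSF. There were 5 arrays in each of 4 groups. One group was given cholesterol crystals (200 ug relative to cell number, 3 h) and afterwards 10 mM hydroxypropyl-beta-cyclodextrin for 6 h, a ring of sugars that takes up cholesterol in its core. A further group had the crystals alone, another the cyclodextrin alone, and the last was untreated. All 3 treated groups came from mice labelled 2 to 5 months old and the untreated group from mice labelled 10 to 15 months old, so that age and treatment cannot be told apart in any comparison with untreated cells. How long the cells without cyclodextrin stood is not in the labels. The design text mentions mice lacking LXR and their littermates, and the labels give no genotype for any array. Nothing in the labels says that replicates came from separate animals, so p-values measure the spread between these arrays, part of which may be technical. Arrays within each group differed in transcripts of the sex chromosomes, as given below.

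Complement is a cascade of plasma proteins that tags particles and cells for uptake. C1q, built of A, B and C chains, recognises bound antibody and other surfaces and starts the classical pathway, which cleaves C4 and C2 and then C3. Factor B and properdin drive and stabilise the alternative pathway. The cleavage fragments C3a and C5a signal through the receptors C3ar1 and C5ar1 on myeloid cells. Most complement proteins are made by the liver, whereas C1q is made chiefly by macrophages and their relatives, and macrophages and neutrophils make properdin.

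The genes for C1q lie next to each other on mouse chromosome 4 in the order C1qb, C1qc and C1qa, and their levels moved together. The promoters at hand for them are therefore shown with that of C5ar1, the tested member with the largest difference between treatments. RefSeq promoters (GRCm38.p6) were matched by symbol for 6 of the 9 members (C1qb, C1qc, C3, C3ar1, C5ar1 and Cfp). The 250 bases before the start of each gene shown are written 5′ to 3′ on the gene's own strand, which is the minus strand for all 3: C1qb at chr4:136886201-136886450, C1qc at chr4:136892915-136893164 and C5ar1 at chr7:16259339-16259588. Capitals mark matches to GAGGAA, a core bound by the myeloid factor PU.1, or to TGCTGA, a half-site bound by MAF factors, on either strand.
C1qb: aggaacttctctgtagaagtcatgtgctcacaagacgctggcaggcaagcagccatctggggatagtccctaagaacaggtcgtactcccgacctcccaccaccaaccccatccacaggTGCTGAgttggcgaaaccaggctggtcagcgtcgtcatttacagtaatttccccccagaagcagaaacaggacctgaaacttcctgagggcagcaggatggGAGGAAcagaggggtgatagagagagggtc
C1qc: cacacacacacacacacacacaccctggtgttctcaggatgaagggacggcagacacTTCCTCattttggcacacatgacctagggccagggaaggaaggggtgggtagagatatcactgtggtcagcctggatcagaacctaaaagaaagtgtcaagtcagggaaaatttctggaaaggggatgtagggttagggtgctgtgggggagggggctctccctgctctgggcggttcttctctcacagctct
C5ar1: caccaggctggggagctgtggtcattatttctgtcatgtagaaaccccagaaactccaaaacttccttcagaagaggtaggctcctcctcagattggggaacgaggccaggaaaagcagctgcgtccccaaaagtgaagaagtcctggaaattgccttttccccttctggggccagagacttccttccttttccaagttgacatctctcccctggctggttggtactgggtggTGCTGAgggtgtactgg

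In C1qb the half-site TGCTGA lay 131 to 126 bases and GAGGAA 30 to 25 bases before the start. In C1qc the reverse complement of GAGGAA lay 193 to 188 bases before the start, and in C5ar1 TGCTGA lay 17 to 12 bases before it. These letters are common. GAGGAA occurred on either strand in 23.3% of 32851 RefSeq mouse promoters cut to the same length, and in 2 of the 6 members matched. TGCTGA occurred in 16.1% of all promoters and in 4 of the 6. A composite site of PU.1 and an interferon regulatory factor, GGAANNGAAA, and an interferon response element, GAAANNGAAA, were in none of the 6 windows, against 2.3% and 2.98% of all. The last 4 letters of GAGGAA are the first 4 of GGAANNGAAA, so a run can match both, and none of the matches shown overlaps another. A match is a run of letters and does not show that a factor bound there.

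Levels are log2 values after background correction and quantile normalisation, on which dim probes lie a little above 4. A probe is called detected on an array where its detection p, set against negative control beads, is below 0.05. C1qa, C1qb, C1qc and Cfp were detected on all 20 arrays, with bead signals that reached 25325 for C1qb. C5ar1 was detected on 19, on 4 of 5 arrays with crystals then cyclodextrin and on every array of the other groups. Its bead signals were low, at 97 to 308, where the offset added to all signals shrinks changes. C4b had 3 probes, detected on 13, 2 and 0 arrays, and the first of them was tested. It was detected on 4 arrays with crystals then cyclodextrin, 1 with crystals, 4 with cyclodextrin and 4 untreated. C3ar1 was detected on 9 arrays, 1, 2, 3 and 3 in the same order of groups, and factor B on 1, 1, 2 and 0. C4a is a near-identical copy of C4b, and its 3 probes were detected on 1, 0 and 0 arrays. Whether a C4b probe also binds C4a RNA was not tested.

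Facts that hold for all 20 arrays bear on what follows. Median bead signal ran between 86.6 and 128, and 15342 to 17892 probes per array were detected, or 33.9% to 39.5%. The authors' own value table had been adjusted so that 5 sets of 4 arrays, each with 1 array of every group, shared their mean for each probe, which shows the sets. Nothing in the labels says what a set is. Sets 1 to 3 lay on chips 1 and 5 and had the X-linked transcript Xist at 11.17 to 11.35 and the Y-linked Eif2s3y at 4.21 to 4.37 (set means, n = 4 arrays each). Sets 4 and 5 lay on the other 4 chips, with Xist at 4.33 and 4.35 and Eif2s3y at 10.70 and 10.61. No sex is labelled. Each set thus joins 1 untreated array and 3 treated arrays alike in these transcripts but labelled with different ages, and whether the age labels are right was not tested. Of 12 macrophage markers listed, 9 were tested, and their mean level per array ran between 10.53 and 11.05 with crystals then cyclodextrin, 10.48 and 10.90 with crystals, 10.67 and 11.42 with cyclodextrin, and 11.08 and 11.54 in untreated cells. In these bulk samples, fewer cells of a type and less RNA per cell cannot be told apart.

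C5ar1, the receptor through which C5a attracts and activates myeloid cells, was the tested member with the largest difference between treatments. In the order of sets 1 to 5, its level was 4.66, 5.71, 6.72, 5.89 and 5.27 with crystals then cyclodextrin. It was 5.04, 5.34, 5.86, 5.40 and 5.73 with crystals, 5.82, 6.53, 7.73, 6.18 and 5.92 with cyclodextrin, and 5.94, 7.20, 6.48, 6.15 and 6.68 in untreated cells. Every array with crystals alone lay below every untreated array, and the highest of them was just above the lowest cyclodextrin array. The arrays with crystals then cyclodextrin overlapped all other groups, and the one of set 3, at 6.72, was the only one of them above the lowest untreated array.

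Crystals alone gave a C5ar1 level of 5.47 ± 0.33, against 6.49 ± 0.49 in untreated cells (SD, n = 5 each). The log2 difference was -1.02 (SE 0.36), or 2.02-fold lower, and the level was lower in 5 of 5 sets. In limma without a block the adjusted p over all genes was 0.0557, just short of the threshold of 0.05. With the set as a block the SE was 0.24 and the adjusted p was 0.00488. That call held with each of the 5 sets left out in turn (adjusted p 0.00176 to 0.0473). Without a block, the adjusted p ran between 0.0242 and 0.156 when single arrays were left out, and passed without untreated replicate 1, cyclodextrin replicate 4, or replicate 1 or 2 of crystals then cyclodextrin.

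Cells with both treatments averaged 5.65 ± 0.76, which was -0.84 (SE 0.36) from untreated cells, with an adjusted p of 0.107 without a block and 0.0142 with it, and lower in 4 of 5 sets. Against cyclodextrin alone, at 6.44 ± 0.77, the difference was -0.79 (SE 0.36), with an adjusted p of 0.196 without a block and 0.0324 with it, and lower in 5 of 5 sets. Both of these set-block calls were lost when set 1 (adjusted p 0.0826 against untreated cells, 0.159 against cyclodextrin) or set 2 (0.0785 and 0.0831) was left out, and the one against untreated cells also without set 5 (0.0673). Cyclodextrin alone differed from untreated cells by -0.05 (95% interval -0.80 to 0.69). Crystals then cyclodextrin differed from crystals by 0.18 (-0.57 to 0.92). Both intervals are wide, and neither shows that the C5ar1 levels were alike. The interaction of the treatments was 0.23 (SE 0.51, adjusted p 0.9999).

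The mean of the 9 macrophage markers was at most 11.05 on every array with crystals then cyclodextrin and 10.90 with crystals, and at least 11.08 on every untreated array. With cyclodextrin alone it ran between 10.67 and 11.42 and overlapped the other groups, while C5ar1 there was close to its untreated level. The markers did not move as one. In crystals against untreated cells, 3 of 9 passed without a block, all lower: Cx3cr1 (-2.17), Cd14 (-1.14) and Itgam (-0.88). Fcgr1 was at -1.24 and Mertk at 0.74 without passing, and Adgre1 (-0.14), Csf1r (-0.27), Lyz2 (-0.09) and Mrc1 (0.03) lay nearer 0. Neutrophils also carry C5ar1, and 1 of 10 neutrophil markers was tested, S100a8, at 5.72 to 6.83 with crystals then cyclodextrin, 5.68 to 6.33 with crystals, 5.79 to 6.45 with cyclodextrin and 5.52 to 6.74 in untreated cells, which overlap. The part of these markers in the C5ar1 difference was not tested.

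C3ar1, the receptor for C3a, stayed near background. In the order of sets 1 to 5 it was 4.74, 4.86, 4.23, 4.62 and 4.43 with crystals then cyclodextrin, 4.68, 4.85, 4.49, 4.44 and 5.21 with crystals, 4.81, 4.75, 4.63, 5.36 and 4.77 with cyclodextrin, and 4.63, 4.34, 5.02, 4.95 and 5.12 in untreated cells. All groups overlapped. Its differences ran between -0.29 (SE 0.18, crystals then cyclodextrin minus cyclodextrin, adjusted p 0.379) and 0.05 (cyclodextrin minus untreated, adjusted p 0.976), and the offset added to all signals shrinks changes at such levels.

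**Figure D1:**
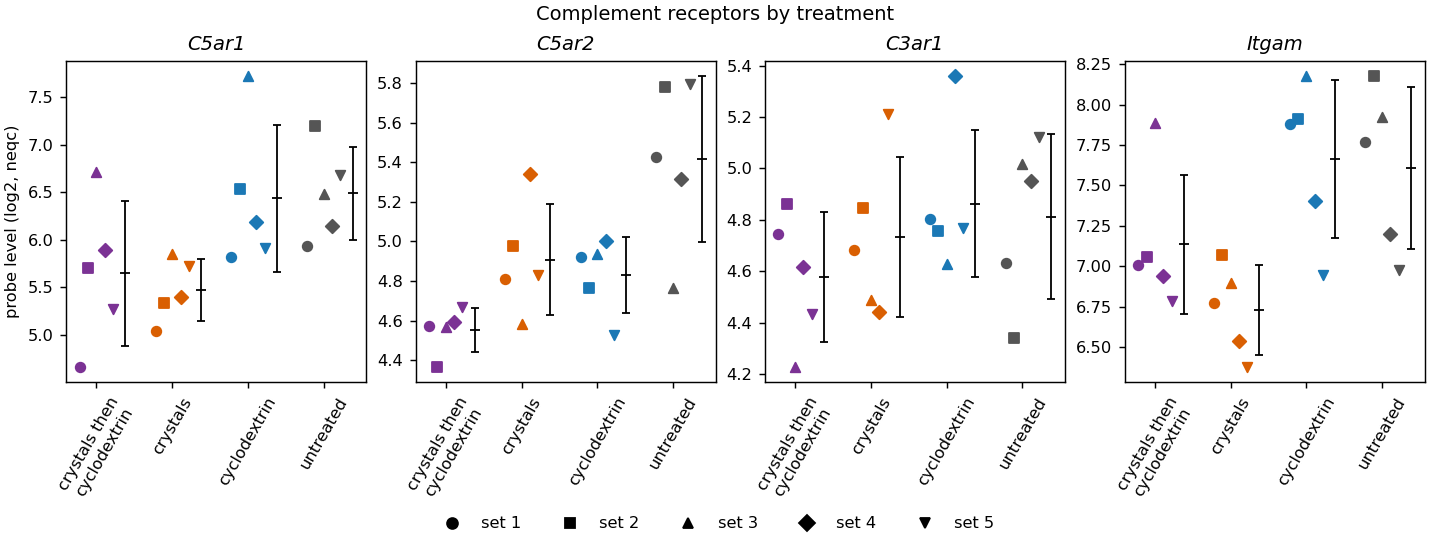
Level (log2, y axis) of 4 complement receptor genes on each of 20 arrays, by treatment, with the shape of a point for its set and a bar for the mean ± SD of 5 arrays; the y axes differ. All 5 crystal arrays lie below all 5 untreated arrays for C5ar1, at 5.86 and under against 5.94 and over, and C5ar2 is lowest with crystals then cyclodextrin.

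C1q varied between sets far more than between treatments. For C1qa, the A chain, the values in sets 1 to 5 were 9.91, 10.87, 10.72, 10.51 and 8.36 with crystals then cyclodextrin, and 9.90, 10.48, 10.59, 10.13 and 8.15 with crystals. They were 10.19, 10.60, 11.26, 10.44 and 8.56 with cyclodextrin and 10.45, 11.05, 10.65, 10.59 and 8.60 in untreated cells. Set 5 was lowest in all 4 groups, and its highest array, at 8.60, was below the lowest of the other 16, at 9.90.

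C1qb, the B chain, averaged 11.13 ± 0.26 in set 5 (SD, n = 4 arrays) and 13.58 ± 0.39 in the other sets (n = 16), which is 5.47-fold lower. C1qa was 4.30-fold lower in set 5, at 8.42 ± 0.21 against 10.52 ± 0.37, and C1qc, the C chain, 2.46-fold lower, at 11.74 ± 0.24 against 13.04 ± 0.53. These folds are a description, since set 5 was singled out after its values were seen. Bead signals of C1qb were 1149 to 2953 in set 5 and 6405 to 25325 elsewhere, so the gap is present before normalisation. The mean of the 9 macrophage markers was 10.75 in set 5 and 10.79 to 11.19 in the other sets. Single markers differed more: 4 of the 9 were lowest in set 5 (Adgre1, Fcgr1, Mrc1 and Itgam) and the rest were not. Mrc1 was 10.52 there and 10.86 to 11.42 elsewhere, and Cd14 was 13.03 there and 12.22 to 13.07 elsewhere. The mean of 7 fibroblast and stromal markers was 6.26 in set 5, 6.68 in set 4 and 5.47 to 5.90 in sets 1 to 3. The part of cell makeup in the C1q difference was not tested.

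**Figure D2:**
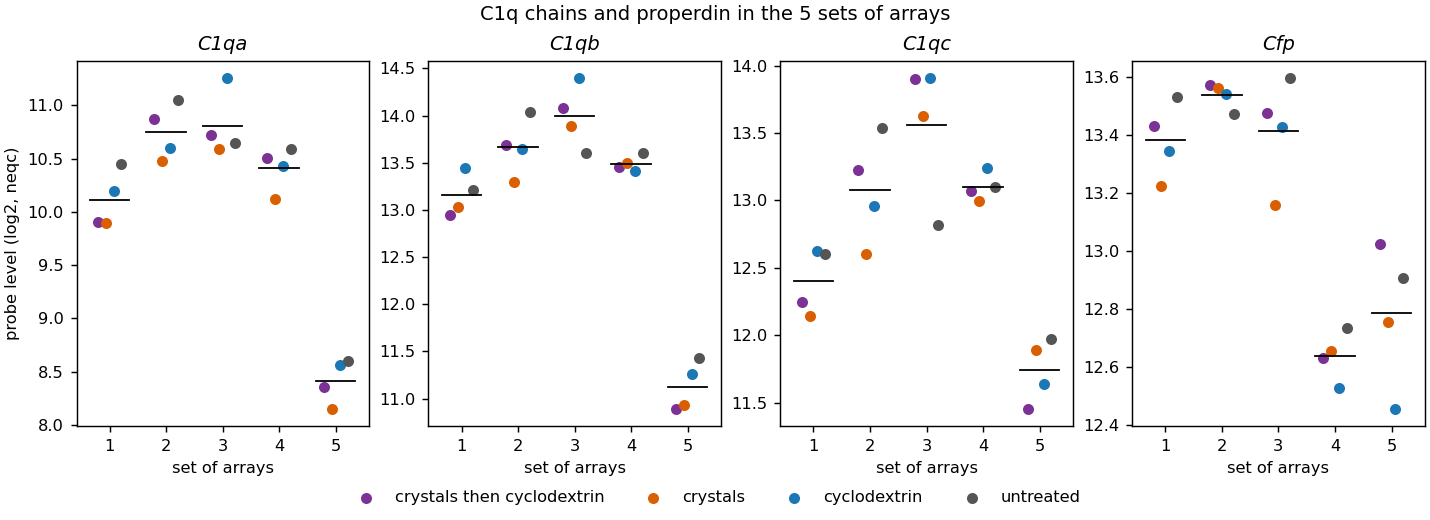
Level (log2, y axis, a different range in each panel) of the C1q chains and properdin on 20 arrays, by set of arrays (x axis), with the treatment as colour and the mean of 4 arrays as a line. The C1q chains are lowest in set 5 in every treatment, and properdin is lower in sets 4 and 5 than in sets 1 to 3.

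Among the treatments, C1qa averaged 10.07 ± 1.03 with crystals then cyclodextrin, 9.85 ± 0.99 with crystals, 10.21 ± 1.00 with cyclodextrin and 10.27 ± 0.96 in untreated cells (SD, n = 5 each). The groups overlapped fully, and each holds 1 array of set 5. Within sets, C1qa was lower with crystals than in untreated cells in 5 of 5, by between 0.05 and 0.57 on the log2 scale. The difference was -0.42, with an SE of 0.57 and an adjusted p of 0.706 without a block. With the set as a block the SE was 0.12 and the adjusted p 0.0152, a 1.34-fold lower level. That call was lost without set 1, 2, 4 or 5 (adjusted p 0.0789, 0.0546, 0.0502 and 0.0583) and kept without set 3 (0.00376).

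For C1qb the difference of crystals from untreated cells was -0.25 and for C1qc -0.15, each lower in 4 of 5 sets, and neither passed with the set as a block (adjusted p 0.213 and 0.637). Without set 3, the fit in which C1qa kept its call, C1qb also passed (-0.38, adjusted p 0.0407). The set-block intervals were -0.55 to 0.05 for C1qb and -0.58 to 0.27 for C1qc, so C1qb could have been lower by as much as C1qa was. Crystals then cyclodextrin gave more C1qa than crystals in 5 of 5 sets, by 0.23 (set-block interval -0.03 to 0.48, adjusted p 0.409). For C1qb and C1qc that difference was 0.08 and 0.13, and with all sets in the fit no C1q chain passed in any comparison other than C1qa between crystals and untreated cells.

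Across the 20 arrays, C1qa and C1qb had a Pearson r of 0.984, C1qb and C1qc 0.903, and C1qa and C1qc 0.880. After the mean of each set was removed, r was 0.775, 0.809 and 0.594 for the same pairs. C5ar1 went with C1qa at r = 0.384 over all arrays and 0.795 within sets, and with C1qb at 0.368 and 0.814. The arrays share treatments, sets and normalisation, so these values describe them and carry no p. By the same measure, the 3 genes most like C1qa over all arrays were Pstpip1 (r = 0.895), Kif23 (0.890) and Pclaf (0.884), and within sets their r with C1qa was 0.18, -0.11 and 0.41. The same 3 genes were most like C1qb. C1qc was most like Prr33 (0.917), Ly6e (0.884) and Sbno2 (0.824), with 0.85, 0.90 and 0.52 within sets. The genes most like C5ar1 were Marveld1 (0.928), Ndfip1 (0.928) and Smim24 (0.926), and r within sets was 0.92, 0.94 and 0.91.

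Properdin, the stabiliser of the alternative pathway convertase, was among the strongly detected members and also split by set. In sets 1 to 5 Cfp was 13.43, 13.58, 13.48, 12.63 and 13.02 with crystals then cyclodextrin, 13.22, 13.56, 13.16, 12.66 and 12.76 with crystals, 13.35, 13.54, 13.43, 12.53 and 12.45 with cyclodextrin, and 13.53, 13.47, 13.60, 12.73 and 12.91 in untreated cells. Sets 4 and 5 averaged 12.64 and 12.79, and sets 1, 2 and 3 averaged 13.38, 13.54 and 13.42, with no overlap of arrays between the first pair and the other 3. Cfp lies on chromosome X, and the same sets differ in Xist and Eif2s3y and in their chips, which cannot be told apart. Treatment differences of Cfp lay between -0.19 (cyclodextrin minus untreated, SE 0.25, adjusted p 0.907) and 0.17 (crystals then cyclodextrin minus cyclodextrin, adjusted p 0.764, higher in 5 of 5 sets). None passed with the set as a block, where the lowest adjusted p was 0.196, for crystals against untreated cells. Over all arrays Cfp was most like Trim30a (r = 0.934), Igf2bp3 (0.932) and Pdxdc1 (0.932), and within sets these had r = 0.39, 0.43 and 0.48.

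C4b, the classical pathway component whose cleavage follows C1q binding, lay near background. Its tested probe read 5.07, 4.52, 4.88, 4.73 and 4.88 in sets 1 to 5 with crystals then cyclodextrin, 5.11, 4.46, 4.48, 4.48 and 4.61 with crystals, 5.04, 5.01, 4.96, 4.67 and 4.87 with cyclodextrin, and 5.04, 4.93, 4.52, 4.81 and 4.66 in untreated cells. The groups overlapped. Crystals alone were lowest, at 4.63 ± 0.28 against 4.79 ± 0.21 in untreated cells (adjusted p 0.50). Its 2 other probes lay between 4.25 and 4.98. Factor B, the protease of the alternative pathway, read 4.21 to 5.30 over the 20 arrays. Its highest arrays were 5.30 with crystals then cyclodextrin (set 4), 5.28 with crystals (set 2) and 5.08 with cyclodextrin (set 2). All other treated arrays read 4.27 to 4.70, and the untreated arrays 4.21 to 4.53. Factor B was not tested, and single arrays near background do not show a difference between treatments.

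C3ar1 was most like Entpd7 (r = 0.668), Aktip (0.659) and Sec24b (0.631), and C4b most like Ffar3 (0.707), Ildr1 (0.703) and Vamp3 (0.685).

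The share of a gene's spread that lies between sets sums these patterns. It was 94.2% for C1qa, 95.5% for C1qb, 83.1% for C1qc and 88.0% for Cfp, against a median of 31.0% over the 10018 genes. Treatment held 3.20%, 1.41%, 1.32% and 5.00% of the spread of those 4 genes, and a median of 24.9% over all genes. C5ar1 was the tested member with more of its spread between treatments (40.5%) than between sets (36.8%), apart from C3ar1 (14.5% and 13.7%), whose remaining share was 71.8%. For C4b the shares were 42.7% between sets and 21.6% between treatments. 

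**Figure D3:**
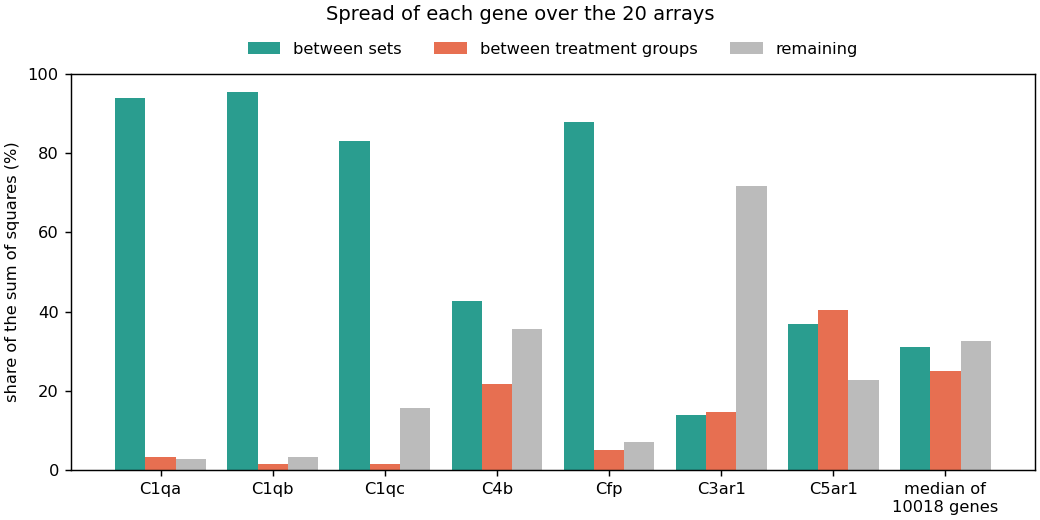
Share of the sum of squares over 20 arrays (percent, y axis) that lies between the 5 sets, between the 4 treatments and in what remains, for the 7 tested complement genes and as the median of each share over all genes tested. Sets hold over 80% for the C1q chains and properdin, and of the 7 genes the treatments hold the highest share in C5ar1, at 40.5%.

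Counts of members called are read against the share of all genes called. Crystals against untreated cells called 17.5% of genes without a block and 27.7% with the set as a block, and 0 and 2 of the 7 members (C5ar1 and C1qa, both lower). Crystals then cyclodextrin against untreated cells called 20.2% and 31.8% of genes, and 0 and 1 member (C5ar1, lower). Against cyclodextrin, crystals then cyclodextrin called 9.2% and 18.5% of genes, and again 0 and 1 member (C5ar1, lower). No member was called in the other comparisons with either fit: cyclodextrin against untreated cells called 1.13% and 4.12% of genes, crystals then cyclodextrin against crystals 0% and 1.8%, and the interaction 0.0399% and 0.14%. In the comparison with 0% called, limma gave 815 of the 10018 genes an unadjusted p below 0.05. No member was among them, which says little for only 7 members. The median difference of crystals from untreated cells was -0.18 over the 7 members and -0.02 over all genes. The 2 of 7 members called in the first comparison is close to the 27.7% of all genes, and the comparisons share arrays.

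**Figure D4:**
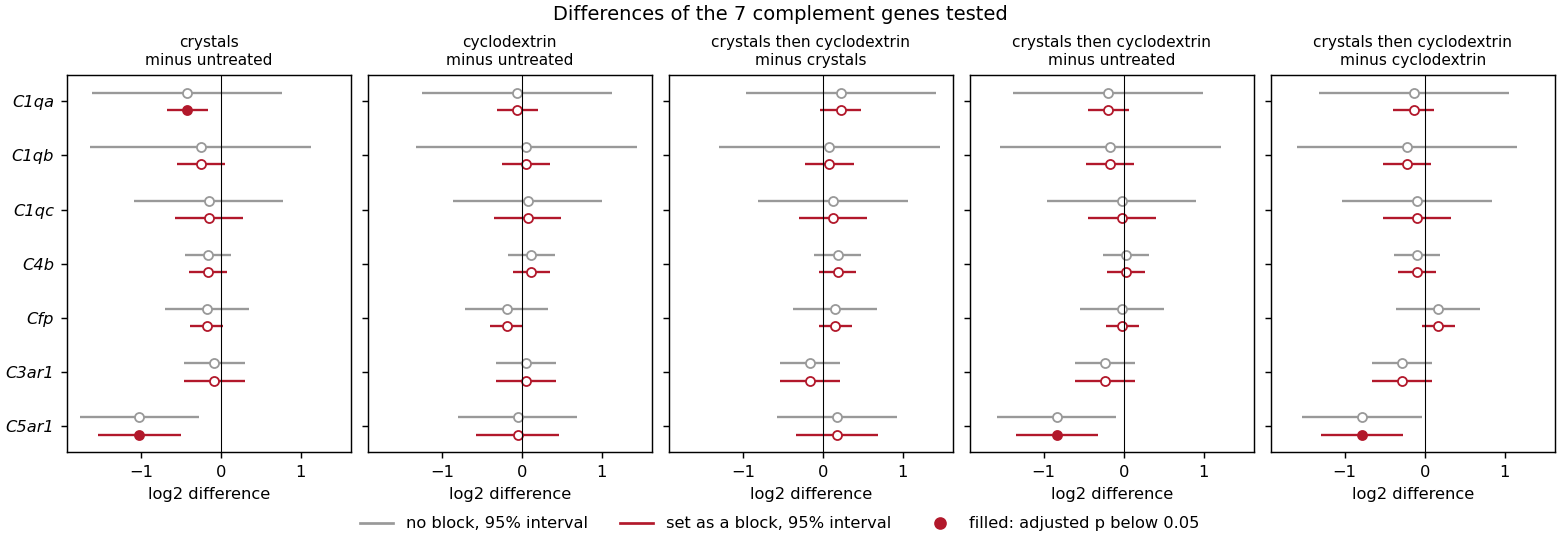
Log2 difference (x axis) of the 7 tested complement genes (rows) in 5 comparisons (panels), with 95% intervals from limma without a block (grey) and with the set as a block (red); filled points passed an adjusted p of 0.05. The set block narrows the intervals of the C1q chains and Cfp most, and filled points are C5ar1 in 3 comparisons and C1qa in 1.

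No member's differences passed a test of whether they differ between the 2 groups of chips. For C5ar1 the difference of crystals from untreated cells was -1.13 on chips 1 and 5 (sets 1 to 3) and -0.85 on the other chips, and the difference between these was -0.27 (SE 0.76, adjusted p 0.983). For C1qa it was -0.39 and -0.46, and the difference between these was 0.07 (SE 0.99). The fit had no set term, and with SEs of this size it could have missed large differences between the groups of chips.

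Other complement genes came from a list of 48, of which 44 had a probe and 20 were tested. Those short of the 5 arrays include the proteases of C1 (0 to 2 arrays) and the mannose-binding lectins (0). Of the terminal pathway, C5 (Hc, 1), C6 (0), C7 (2), C8a (2) and C9 (3) fell short. C8b and C8g of that pathway were detected on 19 and 20 arrays and were tested, and neither was called in any comparison. Without a block, crystals against untreated cells called 3 of the 20 (1 higher, 2 lower), crystals then cyclodextrin against untreated cells 3 (1 higher, 2 lower), and crystals then cyclodextrin against cyclodextrin 1 (higher). Blocking on the set gave 5 (1 higher, 4 lower), 6 (1 higher, 5 lower) and 2 (1 higher, 1 lower) in the same order. As shares of the 20 these are 15%, 15% and 5% without a block, where 17.5%, 20.2% and 9.2% of all genes were called. With the block they are 25%, 30% and 10%, where 27.7%, 31.8% and 18.5% of all genes were. With only 20 genes and comparisons that share arrays, these shares are not read as a result about the list. None of the 20 was called in the other comparisons. Their median difference in crystals against untreated cells was -0.12, beside -0.02 over all genes. These counts rest on 1 probe per gene. A second Cd93 probe, detected on all 20 arrays, was lower with both treatments than in untreated cells (-0.72, limma adjusted p 0.0381 over all detected probes). The tested Cd93 probe differed by -0.36 and was not called. Second probes of Cr1l, Ptx3 and Serping1 did not pass. Cd93 was picked out after its values were seen.

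C5ar2, the other receptor of C5a, fell in both crystal groups against untreated cells. Its level in sets 1 to 5 was 4.57, 4.36, 4.57, 4.59 and 4.67 with crystals then cyclodextrin, 4.81, 4.98, 4.58, 5.34 and 4.83 with crystals, 4.92, 4.76, 4.93, 5.00 and 4.53 with cyclodextrin, and 5.43, 5.78, 4.77, 5.31 and 5.80 in untreated cells. It was detected on 0 arrays with crystals then cyclodextrin and on 4 of each other group, and all arrays with both treatments lay below all untreated arrays. Crystals then cyclodextrin differed from untreated cells by -0.86 as measured (SE 0.17, adjusted p 0.00142), a call that held with each array left out in turn (0.000242 to 0.00583). With the undetected arrays raised to at least the lowest level of any detected probe on them, the mean was 1.59-fold lower. That fold is a point value without an interval. With crystals alone the difference was -0.51 (SE 0.17, adjusted p 0.0448), which passed in 6 of 20 leave-outs with an adjusted p of up to 0.133 in the others, and the 6 were those without cyclodextrin replicate 1, 4 or 5, crystals replicate 4, untreated replicate 5 or replicate 5 of both treatments. With cyclodextrin alone C5ar2 was as far from untreated cells (-0.59, SE 0.17, lower in 4 of 5 sets), where C5ar1 differed by -0.05. The C5ar2 difference did not pass (adjusted p 0.125 without a block and 0.0532 with the set as a block), except in the set-block fit without set 3 (0.0162).

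Itgam, the alpha chain of complement receptor 3 and one of the macrophage markers, was lower with crystals in 5 of 5 sets. It read 6.77, 7.07, 6.90, 6.54 and 6.37 in sets 1 to 5 with crystals, against 7.77, 8.18, 7.92, 7.20 and 6.98 in untreated cells. The difference was -0.88 (SE 0.26, adjusted p 0.0216), and the call was lost without crystals replicate 3 or untreated replicate 4 or 5 (adjusted p up to 0.0731). With crystals then cyclodextrin Itgam was 7.14 ± 0.43, against 7.66 ± 0.49 with cyclodextrin and 7.61 ± 0.50 in untreated cells, and it passed against both with the set as a block (adjusted p 0.0129 and 0.0144), but not when set 1 (0.11 and 0.0892) or set 2 (0.0550 and 0.114) was left out.

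C1qbp, a mitochondrial protein that binds the globular heads of C1q, was the one gene of the list called higher in any comparison. It averaged 9.31 ± 0.32 with crystals then cyclodextrin, 9.20 ± 0.27 with crystals, 8.75 ± 0.29 with cyclodextrin and 8.62 ± 0.08 in untreated cells. It was higher in 5 of 5 sets with crystals than in untreated cells (0.58, SE 0.16, adjusted p 0.0160, lost at 0.0561 without crystals replicate 1). With both treatments it was 0.70 above untreated cells (adjusted p 0.00422, kept in all 20 leave-outs) and 0.56 above cyclodextrin (adjusted p 0.0311). The last of these was lost without cyclodextrin replicate 2 or 3 or without replicate 2 or 4 of crystals then cyclodextrin, with an adjusted p of up to 0.104.

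The membrane regulators Cd59a and Cd59b, which block the membrane attack complex, were also lower with both treatments. Cd59b averaged 5.20 ± 0.23 with crystals then cyclodextrin, against 5.73 ± 0.27 in untreated cells (-0.53, SE 0.17, adjusted p 0.0351), and lower in 5 of 5 sets. That call was lost without replicate 1, 2, 3 or 5 of crystals then cyclodextrin or untreated replicate 1, 2 or 5, with an adjusted p of up to 0.0927. Cd59a averaged 9.25 ± 0.48 with crystals then cyclodextrin and 9.24 ± 0.55 with crystals, against 9.76 ± 0.17 in untreated cells, and passed only with the set as a block (adjusted p 0.00779 and 0.00795). Without set 3 the second of these was lost (0.0577). The 2 genes are close copies, and signal of one on the other's probe was not tested. Vsig4, a receptor of C3 fragments on resident macrophages, passed against untreated cells with the set as a block for crystals then cyclodextrin (-0.45, adjusted p 0.0158) and crystals (-0.37, adjusted p 0.0435). It was kept in 2 and 1 of the 5 fits that left out a set.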

How the data were processed

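RNA of bone marrow-derived macrophages, isolated with TRIzol, was biotin-labelled and hybridised to 20 Illumina arrays, 5 per group, per the labels' protocols. The deposited file gives, per the file headers, an average bead signal (an intensity) and a detection p-value for each of 45281 probes. The authors' deposited value table is in log2 units. It equals quantile-normalised log2 signals with the means of 5 sets of arrays made equal (SD of the difference 7.0e-05), and Partek is named, without version, in the submitters' processing notes. 

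In R 4.3.3 with limma 3.58.1, neqc (offset 16) was run on the bead signals, and 1 blank row was left out. Kept were probes with 1 gene symbol and a detection p below 0.05 on 5 arrays or more, and the probe of highest mean stood for its gene. Of all probes, 34885 had 1 symbol, 18 several and 10378 none. Groups were compared with lmFit, contrasts.fit and eBayes over all 20 arrays, two-sided, without a block. A gene was called where its p, adjusted by Benjamini-Hochberg over the 10018 genes, was below 0.05. Arrays have no depth, and their number limits the precision.

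The members, lists, comparisons and alternatives were chosen with earlier results of these data known, among them the set of arrays as a block. Named genes were all 9 members, the other complement genes called in either fit, and the 3 genes most like each tested member. Alternatives covered normalisation, filter, probe choice, blocks, chips and leaving out arrays; leaving out sets, and arrays for the other complement genes, was added after seeing the data. The fits were tested on simulated data. Same-numbered replicates did not deviate together (r between -0.56 and 0.65, median -0.20, 30 pairs), whereas arrays of a set did (median 0.53).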

Additional observations from a re-analysis of the deposited data

Results flagged for a closer look

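Within each group of 5 arrays, the gap between the highest or lowest array and its neighbour was set against Dixon's critical value of 0.71 for the 7 tested members. Chance flags about 1 in 20 groups, and 4 of 28 were flagged. C1qa stood at 8.15 on crystals replicate 3, below the next array at 9.90, and at 8.60 on untreated replicate 3, below the next at 10.45. Both arrays belong to set 5, in which C1qa was lowest in all 4 groups. C3ar1 stood at 5.36 on cyclodextrin replicate 5, above the next array at 4.81. C4b stood at 5.11 on crystals replicate 5, an array of set 1, above the next at 4.61, and C4b was above 5 in all 4 arrays of that set.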

How the results depend on the processing

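The 7 members' 6 differences were recomputed 1487 times over the alternatives: 1374 kept direction and side of the threshold, 15 newly passed, and 98 changed sign, none of which passed. C5ar1 was lower with crystals than in untreated cells under all 35 alternatives, and 9 of them called it. Its log2 difference ran between -1.16 and -0.43, with a limma adjusted p of 0.00488 to 0.178. Genes called without a block were 1750 for crystals against untreated, 113 for cyclodextrin against untreated, 0 for both treatments against crystals, 2025 for both against untreated, 922 for both against cyclodextrin and 4 for the interaction. Quantile normalisation without background correction gave 11 for the interaction. Scale normalisation gave 654 for crystals against untreated, 48 for cyclodextrin against untreated, 1 for both treatments against crystals, 825 for both against untreated, 266 for both against cyclodextrin and 0 for the interaction. Signs turned there for C1qb in both treatments against crystals (-0.059), Cfp in both against cyclodextrin (-0.0029), C1qb in the interaction (-0.20) and C1qc in the interaction (-0.17). The authors' table with the set as a block gave 2872 for crystals against untreated, 407 for cyclodextrin against untreated, 157 for both treatments against crystals, 3210 for both against untreated, 1970 for both against cyclodextrin and 16 for the interaction. It called 2 of the members for crystals against untreated. Testing all detected probes gave 7 for the interaction. The chip as a fixed block gave 72 for cyclodextrin against untreated, 1 for both treatments against crystals, 1149 for both against untreated and 223 for both against cyclodextrin. Signs turned there for C5ar1 in cyclodextrin against untreated (0.083), C4b in both against cyclodextrin (0.023) and C1qc in the interaction (-0.13). The replicate number as a block (replicate block) gave 1 for both treatments against crystals. It called 1 of the 7 members for crystals against untreated, where it called 1553 of 10018 genes. The set as a block gave 2772 for crystals against untreated, 413 for cyclodextrin against untreated, 180 for both treatments against crystals, 3189 for both against untreated, 1858 for both against cyclodextrin and 14 for the interaction. It called 2 of the members for crystals against untreated, 1 of the members for both against untreated and 1 of the members for both against cyclodextrin. Fitting only the groups compared gave 53 for cyclodextrin against untreated and 596 for both against cyclodextrin. It called 1 of the 7 members for crystals against untreated, where it called 1725 of 10018 genes. Chips 1 and 5 alone gave 54 for cyclodextrin against untreated, 5 for both treatments against crystals and 1 for the interaction. Signs turned there for C3ar1 in crystals against untreated (0.0085), C5ar1 in cyclodextrin against untreated (0.15), C1qc in both against untreated (0.14), C4b in both against untreated (-0.0031), C1qb in the interaction (-0.048) and C4b in the interaction (-0.036). Chips 2, 3, 4 and 6 alone gave 284 for crystals against untreated, 711 for cyclodextrin against untreated, 483 for both treatments against crystals, 1334 for both against untreated, 206 for both against cyclodextrin and 0 for the interaction. Signs turned there for C1qb in cyclodextrin against untreated (-0.18), C1qc in cyclodextrin against untreated (-0.096), C1qb in both treatments against crystals (-0.041), C1qc in both treatments against crystals (-0.18), Cfp in both against untreated (0.0057), C4b in both against cyclodextrin (0.031) and C1qc in the interaction (-0.088). Leaving out set 5 gave 20 for cyclodextrin against untreated and 2 for the interaction. Signs turned there for C5ar1 in cyclodextrin against untreated (0.13), C1qc in both against untreated (0.10) and C4b in both against untreated (-0.024). Leaving out set 5 with the set as a block gave 2 for both treatments against crystals, 1650 for both against cyclodextrin and 7 for the interaction. It called 1 of the 7 members for crystals against untreated, beside 2525 of 10018 genes. For both against cyclodextrin it called 1 of the members, beside 1650 genes. Signs turned there for C5ar1 in cyclodextrin against untreated (0.13), C1qc in both against untreated (0.10) and C4b in both against untreated (-0.024). Leaving out single arrays gave 0 to 1 members called for crystals against untreated, beside 1230 to 1788 genes. For both against untreated it gave 0 to 1 members, beside 1557 to 2085 genes. It gave 41 to 124 genes called for cyclodextrin against untreated and 0 to 14 for both treatments against crystals. For both against cyclodextrin it gave 599 to 1108 genes, and for the interaction 4 to 8. Without single arrays, differences in crystals against untreated that turned sign ran over -0.84 to 0.0043 for C1qa, -0.69 to 0.25 for C1qb and -0.40 to 0.038 for C1qc. Without single arrays, differences in cyclodextrin against untreated that turned sign ran over -0.48 to 0.35 for C1qa, -0.38 to 0.55 for C1qb, -0.19 to 0.38 for C1qc, -0.074 to 0.13 for C3ar1 and -0.38 to 0.13 for C5ar1. Without single arrays, differences in both treatments against crystals that turned sign ran over -0.20 to 0.65 for C1qa, -0.42 to 0.61 for C1qb, -0.15 to 0.46 for C1qc and -0.088 to 0.43 for C5ar1. Without single arrays, differences in both against untreated that turned sign ran over -0.61 to 0.23 for C1qa, -0.61 to 0.36 for C1qb, -0.30 to 0.31 for C1qc, -0.043 to 0.099 for C4b and -0.15 to 0.13 for Cfp. Without single arrays, differences in both against cyclodextrin that turned sign ran over -0.55 to 0.29 for C1qa, -0.72 to 0.31 for C1qb and -0.41 to 0.24 for C1qc. Without single arrays, differences in the interaction that turned sign ran over -0.14 to 0.71 for C1qa, -0.47 to 0.56 for C1qb, -0.25 to 0.39 for C1qc and -0.035 to 0.55 for C5ar1. The replicate number changed the call of C5ar1 for crystals against untreated and no other member's, and same-numbered arrays are not known to be paired. Causes of these changes were not tested. Signals near background limit C3ar1, C4b, C5ar2 and factor B, and Vsig4 in sets 4 and 5. Low signals also limit C5ar1, whose bead signals were 97 to 308.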

Other observations

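Some further complement genes, chosen after their values were seen, also split by set. Serping1, the inhibitor of C1 proteases, averaged 8.23 and 7.82 in sets 4 and 5 and 6.14 to 6.80 in sets 1 to 3 (n = 4 arrays each), and 97.4% of its spread lay between sets. Fcna, a ficolin that recognises sugars for the lectin pathway, ran the other way, at 7.78 and 7.50 in sets 4 and 5 and 8.35 to 8.49 in sets 1 to 3. Vsig4 averaged 4.45 and 4.72 in sets 4 and 5 and 5.91 to 6.47 in sets 1 to 3. Its arrays in sets 4 and 5, at 4.29 to 4.95, lay near background. Treatment held 0.581% of the spread of Serping1, 2.37% of that of Fcna and 4.42% of that of Vsig4. Sets 4 and 5 are those with low Xist, high Eif2s3y and the higher mean of the 7 fibroblast and stromal markers. The part of each in these splits was not tested. Each of the 7 markers was higher in set 4 than in sets 1 to 3. In set 5, Col1a2 (5.12) and Lum (4.70) lay below set 1 (5.60 and 4.83), and the other markers lay above sets 1 to 3.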
